A study of Mus musculus with 25 samples.

Results

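The 36 genes described here encode matrix proteins other than collagens, enzymes that crosslink or cut matrix, and markers and signals of stellate cells. They were chosen by gene symbol out of 17894 genes measured in at least 1 of 4 FPKM tables of mouse pancreatic islets. All 36 were found in the WT, PBS and db tables, which hold 15468, 17549 and 16958 genes. The high-fat diet (HFD) table holds 35 of them among 12822 genes, and Tnc was not analysed there. Ctgf carries its newer symbol Ccn2 in 3 of the tables and was matched by its Entrez identifier, 14219.

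Messenger RNA was sequenced in islets, with islets of at least 3 mice pooled for each sample. The db table holds 2 db_REG3B and 2 db_GFP libraries. The PBS table holds 2 KO_REG3B-Fc, 2 KO_PBS and 2 CTR_PBS libraries. The HFD table holds 2 BcBKO and 2 flox/flox libraries from mice fed HFD for 3 months, and the WT table holds 5 libraries. BcBKO stands for ablation in beta cells by Pdx1-cre, in a study of the chromatin remodelling subunit BAF60C. The Pdx1 promoter is also active in embryonic pancreatic progenitors, so a Pdx1-cre deletion need not stop at beta cells. No label names the gene behind KO, or says what db and GFP stand for, how REG3B, a secreted lectin, was given in the db mice, or what age, sex or strain the mice were. Whether samples of a group came from separate mice beyond the pooling is not stated either, so p-values measure the spread between these libraries, which may be technical. Chow-fed flox/flox and BcBKO samples, 3 of each, were not analysed here.

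FPKM, a fragment count scaled by transcript length and library size, is a level per length, and the read depth behind it is unknown. Between 10436 and 12553 genes per library reached 1 FPKM. Smarcd3, which encodes BAF60C, measured 0.57 to 3.18 FPKM over the 19 libraries and differed past the threshold only between db_REG3B and db_GFP (log2 change -0.63, limma adjusted p = 0.0021). On HFD it measured 3.11 and 2.40 FPKM in the libraries labelled BcBKO, against 2.57 and 2.55 FPKM in flox/flox. A gene-level value from all islet cells cannot tell whether an exon is missing in beta cells. Beta cell markers, among them both insulin genes, made up 40.1 to 71.5% of summed FPKM in the HFD, PBS and db libraries. Reg3b transcript was lower in both libraries labelled db_REG3B, at 10.4 and 9.98 FPKM, than in db_GFP, at 21.8 and 26.5 FPKM. Log2 changes below are on the scale log2(FPKM + 1), after each library was divided by its median ratio to the other libraries of its table. The added 1 shrinks changes of genes of low FPKM, so rankings by size hold on this scale only. The words "rose" and "fell" are used at an adjusted p under 0.05.

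Stellate cells and pericytes lie along ducts and capillaries of the pancreas, and when activated they express smooth muscle actin and lay down collagen-rich interstitial matrix. Transforming growth factor beta 1 drives this activation, and connective tissue growth factor (Ctgf) is among its targets. Islets are also wrapped in basement membrane, built from laminins, nidogens and perlecan, which is made in mouse islets largely by the endothelium. Matrix metalloproteinases cut these proteins, and tissue inhibitors of metalloproteinases (Timps) block the enzymes.

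Promoters are shown for 4 genes on which the results turn. Mmp7 and Tnc had the largest falls in db_REG3B islets, and Vim and Acta2 are the stellate markers that moved together in KO_PBS islets. Each window runs from 250 bases before the transcription start to 50 bases after it, is written 5′ to 3′ on the gene's strand and comes from RefSeq on GRCm38.p6. The windows lie at chr9:7691840-7692139 (Mmp7, plus strand), chr4:64046966-64047265 (Tnc, minus strand), chr2:13574061-13574360 (Vim, plus strand) and chr19:34255324-34255623 (Acta2, minus strand). Capitals mark TATAAA, the letters of a TATA box at any position in the window, in Mmp7, Tnc and Vim. They also mark TGANTCA (the AP-1 motif) in Mmp7 and GGAATG (a TEAD motif) in Acta2, and both strands were searched.
Mmp7: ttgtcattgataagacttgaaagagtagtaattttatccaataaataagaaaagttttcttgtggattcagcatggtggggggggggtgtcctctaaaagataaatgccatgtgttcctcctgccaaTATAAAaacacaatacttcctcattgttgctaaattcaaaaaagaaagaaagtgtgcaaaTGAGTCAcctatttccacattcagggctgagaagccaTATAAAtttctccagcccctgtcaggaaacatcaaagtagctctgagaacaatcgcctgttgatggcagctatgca
Tnc: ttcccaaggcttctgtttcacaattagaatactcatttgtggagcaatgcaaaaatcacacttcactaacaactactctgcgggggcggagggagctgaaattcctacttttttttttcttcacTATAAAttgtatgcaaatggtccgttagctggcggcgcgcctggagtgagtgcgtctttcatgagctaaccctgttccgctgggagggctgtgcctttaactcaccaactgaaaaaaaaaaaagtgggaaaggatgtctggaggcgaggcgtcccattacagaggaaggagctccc
Vim: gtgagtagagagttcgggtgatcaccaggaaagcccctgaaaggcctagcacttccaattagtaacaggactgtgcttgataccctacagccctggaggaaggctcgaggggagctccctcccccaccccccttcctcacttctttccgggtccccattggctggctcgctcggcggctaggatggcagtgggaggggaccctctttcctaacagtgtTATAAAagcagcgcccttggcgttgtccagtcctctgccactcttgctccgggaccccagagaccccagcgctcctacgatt
Acta2: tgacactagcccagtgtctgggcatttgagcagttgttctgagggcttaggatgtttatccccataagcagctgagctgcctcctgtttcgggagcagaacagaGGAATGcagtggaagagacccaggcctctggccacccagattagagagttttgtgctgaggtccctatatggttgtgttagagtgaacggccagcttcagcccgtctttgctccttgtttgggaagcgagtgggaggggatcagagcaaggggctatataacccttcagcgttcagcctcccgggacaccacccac

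A promoter entry was found for 21 of the 36 genes. TATAAA was present in 4 of these 21, Vim, Tnc, Mmp7 and Thbs2, against 14.2% of 27025 promoters of the same length. In Mmp7 it starts 123 and 26 bases before the transcription start, in Vim 32 bases before it and in Tnc 126 bases before it. TGANTCA was present in Mmp7 alone, 63 bases before its start, against 7.93% of all promoters. GGAATG was present in Nid1 and Acta2, for Acta2 146 bases before its start, against 14.6% of all promoters. The marked motifs do not overlap, and a match describes letters, not binding.

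The first comparison asks what REG3B changed in db islets. In db_REG3B islets 35 of the 36 genes fell relative to db_GFP islets and 0 rose, with a median log2 change of -1.58 against -0.01 over all genes tested. Of all 12507 genes tested in that table, 26.7% fell and 18.6% rose. At an unadjusted p under 0.05 the count was also 35, all lower, and the authors' deposited table, which called 15.1% of its genes lower and 12.3% higher, likewise has 35 lower and 0 higher. The filter of at least 1 FPKM in at least 2 libraries was passed by 5 of the 36 only through the db_GFP libraries, where they were higher. These were Fbln1, Fbln5, Thbs2, Hspg2 and Pdgfra. Passing in this way favours a difference in that direction, so these 5 do not add to the count as support. Fbln5, a fibulin of elastic fibres, was the exception among the calls, at 0.73 and 0.90 FPKM in db_REG3B against 1.02 and 1.07 FPKM in db_GFP (log2 change -0.15, limma adjusted p = 0.268). Summed over the 36 genes, FPKM came to 1000 and 1060 in db_REG3B islets and to 3040 in each db_GFP library. The sum made up 0.0852 and 0.0878% of all FPKM in db_REG3B, against 0.325 and 0.322% in db_GFP. Both db_REG3B libraries were below both db_GFP libraries for all 36 genes and above them for 0, against 46.2 and 25.2% of all genes tested. On the deposited scale 35 were again lower, against 30.8% of genes lower and 12.2% higher. In pooled islets fewer cells of a type and less RNA per cell cannot be told apart.

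**Figure D1:**
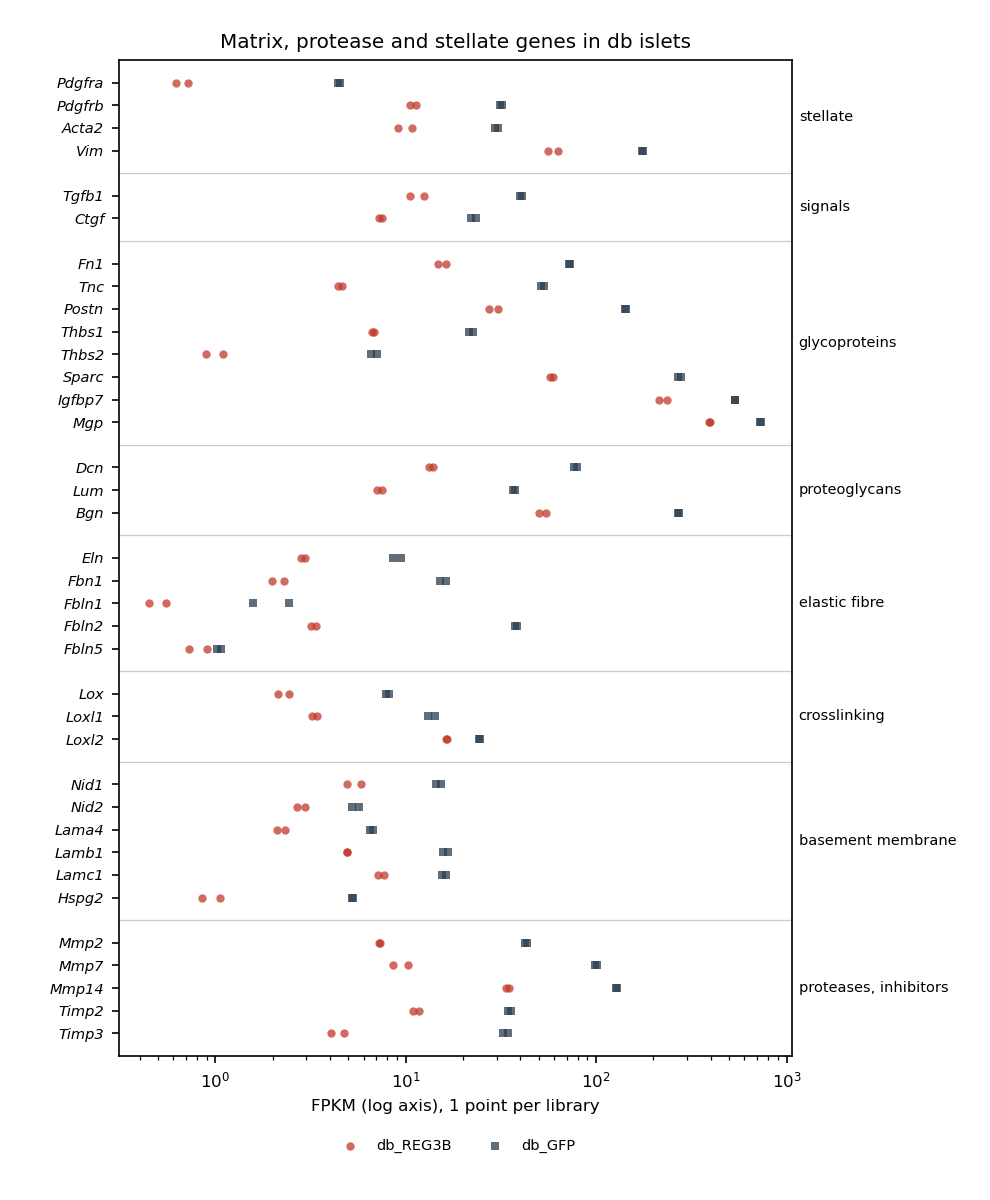
FPKM of the 36 genes in the 2 db_REG3B (circles) and 2 db_GFP (squares) libraries on a log axis, grouped by role. Both db_REG3B points lie below both db_GFP points for every gene, with the widest gaps at Mmp7, Tnc and Fbln2 and the narrowest at Fbln5.

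All 4 stellate and mesenchymal markers fell in db_REG3B islets, Pdgfra among those that passed the filter through db_GFP alone. Pdgfra, the receptor for platelet-derived growth factor on fibroblast-like cells, measured 0.62 and 0.72 FPKM in db_REG3B against 4.40 and 4.49 FPKM in db_GFP. Its sister receptor Pdgfrb, a pericyte and stellate marker, measured 10.5 and 11.3 FPKM in db_REG3B against 31.8 and 31.4 FPKM in db_GFP. Acta2, smooth muscle actin, stood at 9.07 and 10.8 FPKM in db_REG3B and at 30.6 and 29.3 FPKM in db_GFP. Replicates lay close together for each receptor and for actin, and the groups did not overlap. Vim, the intermediate filament of mesenchymal cells, had 55.9 and 63.2 FPKM in db_REG3B and 175 and 176 FPKM in db_GFP. The log2 changes of the 4 markers were -1.67 ± 0.0851 (Pdgfra), -1.40 ± 0.0503 (Pdgfrb), -1.45 ± 0.0703 (Acta2) and -1.49 ± 0.049 (Vim), each ± SE, with limma adjusted p of at most 4.27e-06. The signals fell by a like amount, Tgfb1 with a log2 change of -1.68 and Ctgf with -1.45.

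On the log2(FPKM + 1) scale several interstitial matrix genes had larger changes than the stellate markers, although Mgp and Igfbp7 had smaller ones. In the authors' deposited table the log2 fold change of Pdgfra was -2.65. Tnc (-3.46) and Fbln2 (-3.43) changed more there, but Fn1 (-2.13), Postn (-2.19), Dcn (-2.42), Bgn (-2.28) and Lum (-2.25) changed less. Tnc encodes tenascin-C, a glycoprotein of remodelling tissue, and measured 4.40 and 4.61 FPKM in db_REG3B against 52.9 and 51.2 FPKM in db_GFP (log2 change -3.22 ± 0.0513 SE, limma adjusted p = 2.43e-08). Fbln2, a fibulin that binds fibrillin and basement membrane proteins, measured 3.18 and 3.37 FPKM in db_REG3B against 37.3 and 38.4 FPKM in db_GFP (-3.13 ± 0.056 SE, limma adjusted p = 3.86e-08). All 8 glycoproteins fell, with a median log2 change of -2.02, Thbs2 having passed the filter through db_GFP alone. Among them fibronectin (Fn1) measured 14.7 and 16.3 FPKM in db_REG3B and 73.1 and 71.8 FPKM in db_GFP. Periostin (Postn), which binds collagen and integrins, measured 27.4 and 30.6 FPKM in db_REG3B and 143 and 142 FPKM in db_GFP. The smallest change of the 8 was that of Mgp, the matrix Gla protein that inhibits calcification, at -0.84. Mgp was nevertheless the most abundant of the 36, with 390 and 396 FPKM in db_REG3B and 723 and 738 FPKM in db_GFP. The small leucine-rich proteoglycans, which coat collagen fibrils, fell by similar amounts, Dcn by 2.38, Bgn by 2.30 and Lum by 2.15 on the log2 scale.

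Elastic fibre and crosslinking genes were more spread out. Fbn1, the fibrillin of microfibrils, fell by 2.37 on the log2 scale, Eln by 1.32 and Fbln1 by 0.96. The crosslinking enzymes Loxl1, Lox and Loxl2 had log2 changes of -1.72, -1.41 and -0.49, and Loxl2 had the smallest change among the 35 genes that fell. Loxl2 measured 16.5 and 16.3 FPKM in db_REG3B against 24.5 and 24.2 FPKM in db_GFP. All 6 basement membrane genes fell, with log2 changes between -1.64 for perlecan (Hspg2) and -0.71 for Nid2 and a median of -1.24. Hspg2, like Fbln1 above, passed the filter through db_GFP alone. The median change of the basement membrane genes was thus smaller than that of the glycoproteins, a difference between lists that was not tested.

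Proteases and their inhibitors fell together. Mmp7, matrilysin, an epithelial metalloproteinase, had the largest change of the 36 on the log2(FPKM + 1) scale (-3.23 ± 0.0671 SE, limma adjusted p = 7.21e-08). It measured 8.53 and 10.2 FPKM in db_REG3B against 101 and 98.2 FPKM in db_GFP. In the authors' deposited table its log2 fold change was -3.32, behind Tnc (-3.46) and Fbln2 (-3.43). Timp3, an inhibitor held in the matrix, measured 4.74 and 4.03 FPKM in db_REG3B against 34.3 and 32.4 FPKM in db_GFP (-2.63 ± 0.0811 SE, limma adjusted p = 3.68e-07). Mmp2, a gelatinase, changed by -2.35, and Mmp14 and Timp2, which together activate the Mmp2 precursor at the cell surface, by -1.82 and -1.50. Thus all 3 proteases and both inhibitors were lower in both db_REG3B libraries.

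Markers of several other cell types moved with these genes. Beside the matrix genes, summed FPKM of the 12 stellate and pericyte markers, which include 3 collagens, was 292 and 315 in db_REG3B against 1450 and 1430 in db_GFP. Of those 12, 10 fell and 0 rose. Duct markers summed to 613 and 652 FPKM in db_REG3B against 1420 in each db_GFP library, with 5 of 6 tested lower. All 10 endothelial markers fell, summing to 58.1 and 62.8 FPKM in db_REG3B against 115 in each db_GFP library. Immune markers summed to 271 and 284 FPKM in db_REG3B against 586 and 592 FPKM in db_GFP, with 7 of 8 tested lower, and beta cell markers to 697000 and 718000 FPKM against 379000 and 384000 FPKM. The part of these cell types in the matrix result was not tested.

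Of 75 other matrix genes listed for comparison, 62 were tested in the db table, and 56 fell and 3 rose, with a median log2 change of -1.18. The largest falls were those of Timp1, a soluble metalloproteinase inhibitor (-3.07), Serpinf1, an antiangiogenic serpin (-2.70), and Mmp9, a gelatinase (-2.67). The 3 that rose were P4ha1, a collagen prolyl hydroxylase subunit (0.61), the integrin chain Itgav (0.30) and Emilin1, an elastic fibre glycoprotein (0.22).

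Levels in the db table also stood apart from those of the other tables, which were normalised separately and are set side by side only. For 32 of the 36 genes both db_GFP libraries were above every other library measured outside the db table, 15 libraries or, for Tnc, 11. The other genes were Fbln1, Fbln5, Hspg2 and Timp3. Both db_REG3B libraries were above all of them for 19 genes. Mmp14 in db_GFP, at 128 and 129 FPKM, averaged 68.5 times the highest library of the other tables, and Tnc averaged 145 times the highest. Timp3 and Hspg2 went the other way in db_REG3B, where both libraries were below the lowest level elsewhere, 14.3 FPKM for Timp3 and 1.34 FPKM for Hspg2. Acinar markers also differed between tables, summing to 499 to 906 FPKM in the db libraries and to 26500 to 432000 FPKM in all others. Their part in these levels was not tested.

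**Figure D2:**
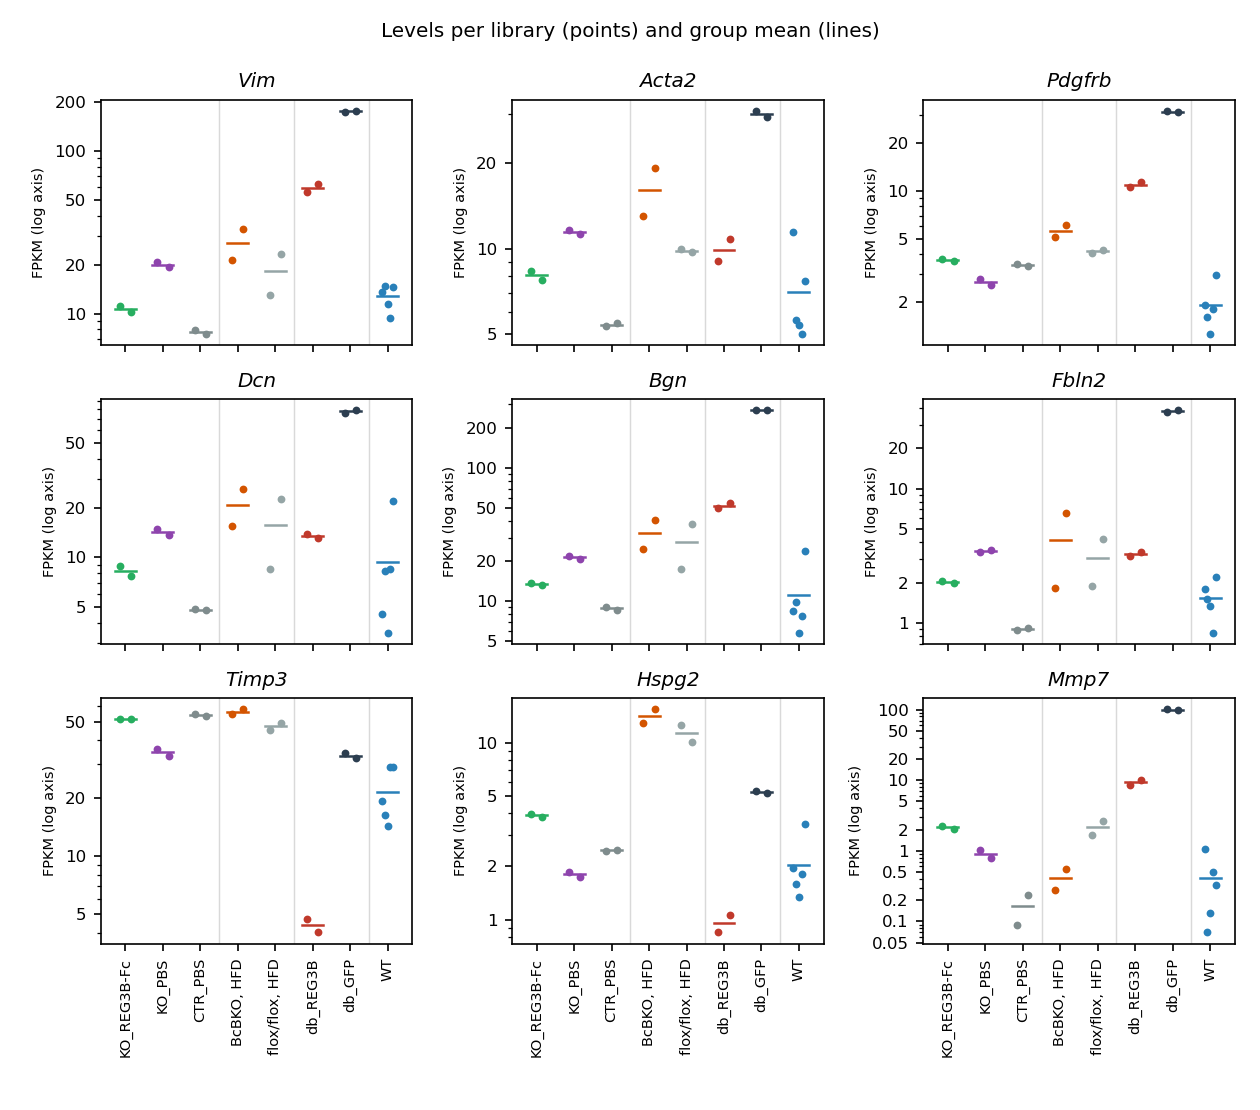
FPKM of 9 genes in every library on log axes that differ between panels, with group means as lines; vertical lines part the PBS, HFD, db and WT tables. Vim, Acta2, Pdgfrb, Dcn, Bgn, Fbln2 and Mmp7 peak in db_GFP, whereas Timp3 and Hspg2 are lowest in db_REG3B.

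The second comparison sets KO_PBS against CTR_PBS. In KO_PBS islets 20 of 28 tested genes rose and 0 fell after median scaling, against 25 and 19.6% of all genes tested, and the median log2 change was 0.78. Limma found 24 genes at an unadjusted p under 0.05, 2 of them lower. The authors' deposited table, which also covers genes of low FPKM, has 27 of the 36 higher and 1, Timp3, lower, against 14.7 and 11.2% of all its genes. On the deposited scale the median gene was 0.438 lower in KO_PBS, and 16 members were higher and 11 lower, against 8.66 and 81.5% of all genes. Changes in this table are therefore given relative to the median gene, and genes whose direction depends on it are named. Both KO_PBS libraries were above both CTR_PBS libraries for 25 of the 36 genes and below them for 11, against 9.91 and 84.5% of all genes tested. The 36 include 8 genes that the filter left out, all of them higher, whereas the shares cover tested genes only. The filter, at least 1 FPKM in at least 2 libraries, left out Tnc, Fbln1, Fn1, Fbn1, Thbs2, Lox, Loxl1 and Pdgfra. The authors' deposited table has 7 of these 8 higher in KO_PBS, with log2 fold changes of 2.60 for Tnc and 2.54 for Lox, and Thbs2 at 0.97 (adjusted p = 0.077).

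Of the stellate markers, Vim and Acta2 rose and Pdgfrb did not pass. Vim measured 20.7 and 19.3 FPKM in KO_PBS against 7.96 and 7.50 FPKM in CTR_PBS (log2 change 1.77 ± 0.0496 SE, limma adjusted p = 9.58e-08). Acta2 measured 11.6 and 11.3 FPKM in KO_PBS against 5.33 and 5.47 FPKM in CTR_PBS (1.44 ± 0.0487 SE, limma adjusted p = 2.15e-07). Neither marker's groups overlapped, and the KO_PBS libraries were the higher ones for each. Pdgfrb measured 2.80 and 2.56 FPKM in KO_PBS against 3.45 and 3.37 FPKM in CTR_PBS, a log2 change of 0.14 (limma adjusted p = 0.0728) that was -0.26 on the deposited scale. Pdgfra stayed under 1 FPKM, at 0.34 and 0.46 FPKM in KO_PBS against 0.09 and 0.10 FPKM in CTR_PBS, with a log2 fold change of 2.55 in the authors' deposited table (adjusted p = 9.61e-09).

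All 3 small leucine-rich proteoglycans rose. Dcn, decorin, had the largest change of the 28 tested genes on the log2(FPKM + 1) scale (1.88 ± 0.0611 SE, limma adjusted p = 1.72e-07). It measured 14.9 and 13.6 FPKM in KO_PBS against 4.82 and 4.77 FPKM in CTR_PBS. In the authors' deposited table its log2 fold change was 2.07, below those of Mmp7 (2.97), Fbln2 (2.40), Eln (2.29) and Mmp2 (2.27). Bgn, biglycan, measured 22.0 and 20.8 FPKM in KO_PBS against 9.06 and 8.64 FPKM in CTR_PBS (1.69 ± 0.0443 SE, limma adjusted p = 8.21e-08). Lum followed with a change of 1.23. Elastic fibre genes rose alongside them, Fbln2 by 1.60, Eln by 1.51 and Fbln5 by 1.04 on the log2 scale. These 6 genes were higher in both KO_PBS libraries and on either scale.

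Glycoproteins, signals and proteases also rose. All 5 tested glycoproteins were called higher, Postn with the largest change (1.38), then Mgp (0.66), Sparc (0.60), Igfbp7 (0.34) and Thbs1 (0.31). Thbs1 and Igfbp7 turned to -0.18 and -0.19 on the deposited scale, where Sparc was at 0.08 and lost its call (limma adjusted p = 0.141). Ctgf rose by 0.81 and Tgfb1 by 0.77. Among the proteases and inhibitors, Mmp2 (1.04), Mmp7 (0.92), Mmp14 (0.86) and Timp2 (0.79) rose, whereas Timp3 did not pass at -0.11 (limma adjusted p = 0.0668). Mmp2 passed the filter only through the KO_PBS libraries, where it is highest, and Mmp7 only with the KO_REG3B-Fc libraries, so neither adds to the count as support. Basement membrane genes stayed close to the median gene. Nidogen 1 (Nid1) alone of these 6 passed, at 0.26 (limma adjusted p = 0.00713), and the other 5 ranged from -0.04 to 0.17. All 6 were lower on the deposited scale, Nid1 at -0.18. Endothelial markers summed to 157 and 156 FPKM in KO_PBS against 207 and 208 FPKM in CTR_PBS, and 7 of 10 were higher and 2 lower after scaling, whereas 0 were higher and 8 lower on the deposited scale. Their part in the basement membrane values was not tested.

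**Figure D3:**
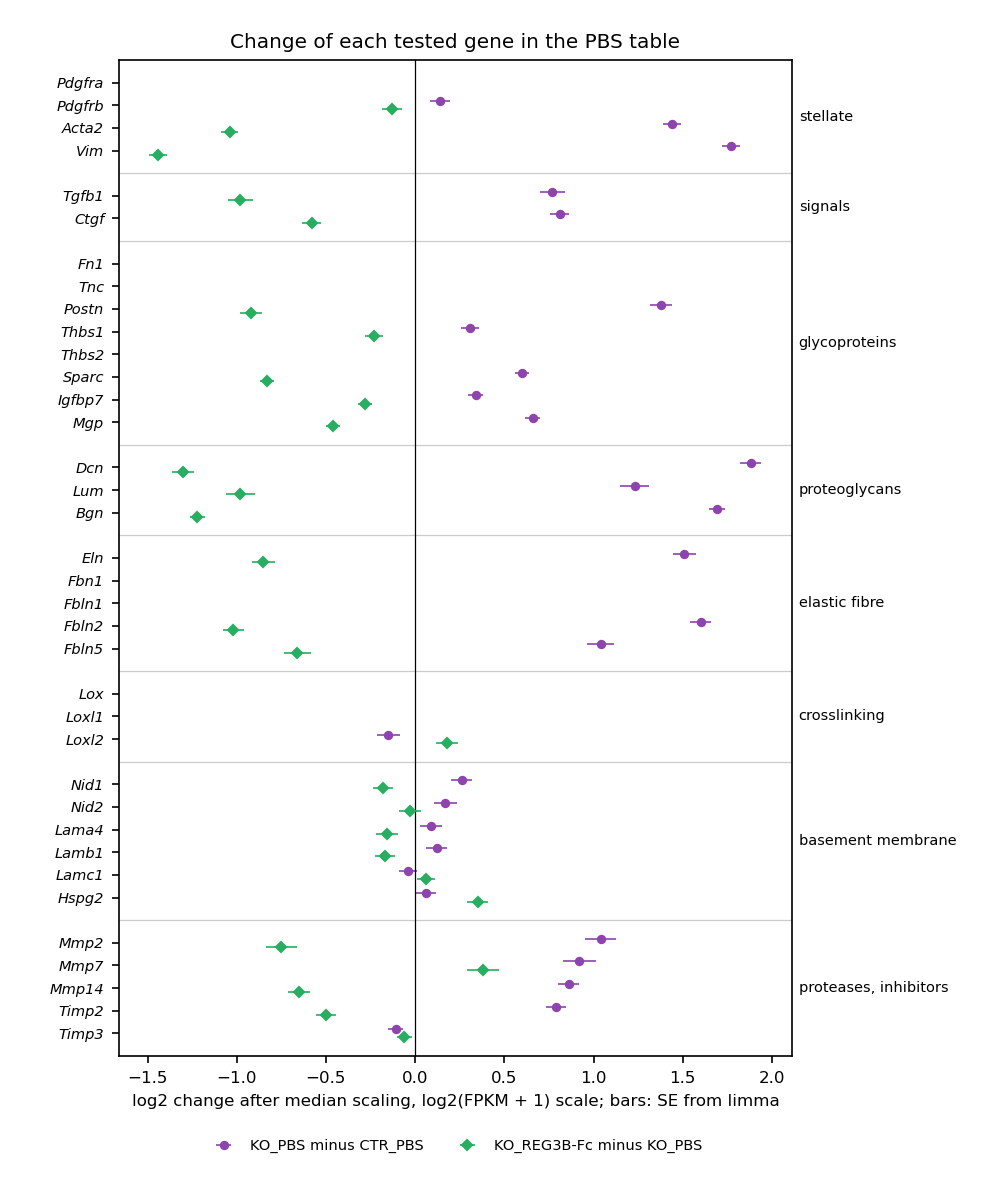
Log2 change after median scaling (log2(FPKM + 1) scale, bars show SE) of the 28 tested genes for KO_REG3B-Fc minus KO_PBS (diamonds) and KO_PBS minus CTR_PBS (circles); rows without points were not tested. Vim, Dcn and Bgn lie farthest from 0 in both comparisons, which share the KO_PBS libraries, while the basement membrane genes lie between -0.18 and 0.35.

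Other cell types moved in the same libraries. Acinar markers summed to 320000 and 335000 FPKM in KO_PBS against 170000 and 174000 FPKM in CTR_PBS, and all 12 rose. Immune markers summed to 358 and 361 FPKM in KO_PBS against 131 and 123 FPKM in CTR_PBS, with all 9 tested higher. Markers of reticular fibroblasts, the stromal cells of lymphoid tissue, summed to 19.1 and 19.3 FPKM in KO_PBS against 1.78 and 1.54 FPKM in CTR_PBS, and 4 of 4 tested rose. Beta cell markers took 40.8 and 40.1% of summed FPKM in KO_PBS against 60.2 and 61.1% in CTR_PBS, and 5 of 7 fell. Duct markers summed to 192 and 187 FPKM in KO_PBS against 592 and 565 FPKM in CTR_PBS, although 3 of 6 tested rose and 2 fell. The lymphocyte markers Ms4a1 and Cd3e were listed at 0 in CTR_PBS. The part of these cells in the matrix result was not tested. Of the other matrix genes 30 of 42 tested rose, led by Vtn, vitronectin (1.41), Pcolce, an enhancer of procollagen processing (1.40), and the transglutaminase Tgm2 (1.38). The 4 that fell were led by Itgav (-0.58), Igfbp3 (-0.47) and the syndecan Sdc2 (-0.25).

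The third comparison asks what REG3B-Fc changed in KO islets, and it shares the KO_PBS libraries with the second. In KO_REG3B-Fc islets 20 of 28 tested genes fell and 3 rose relative to KO_PBS, against 24.8 and 20% of all genes, with a median log2 change of -0.54. Mmp2, among those that fell, passed the filter only through the KO_PBS libraries, where it is highest, so it does not add to the count as support. The authors' deposited table has 25 lower and 1 higher of the 36, against 13.9 and 10.2% of its genes. On the deposited scale, where the median gene was 0.525 higher in KO_REG3B-Fc, the counts were 13 lower and 13 higher, against 6.97 and 86.2% of all genes. Both KO_REG3B-Fc libraries were below both KO_PBS libraries for 20 of the 36 genes and above them for 14, against 7.77 and 88.3% of all genes tested. The 36 include the genes that the filter left out, which were lower except for Thbs2, which overlapped. The shares cover tested genes only.

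Vim had the largest fall of the tested genes, to 11.1 and 10.3 FPKM in KO_REG3B-Fc against 20.7 and 19.3 FPKM in KO_PBS (log2 change -1.44 ± 0.0496 SE, limma adjusted p = 1.9e-07). Dcn measured 8.83 and 7.73 FPKM in KO_REG3B-Fc against 14.9 and 13.6 FPKM in KO_PBS (-1.30 ± 0.0611 SE, limma adjusted p = 1.17e-06). Bgn measured 13.8 and 13.3 FPKM in KO_REG3B-Fc against 22.0 and 20.8 FPKM in KO_PBS (-1.22 ± 0.0443 SE, limma adjusted p = 2.6e-07). In each of these genes both treated libraries were below both KO_PBS libraries before any scaling. Acta2 fell by 1.04 on the log2 scale, with 8.33 and 7.76 FPKM in KO_REG3B-Fc against 11.6 and 11.3 FPKM in KO_PBS. Pdgfrb did not pass, at 3.71 and 3.65 FPKM in KO_REG3B-Fc against 2.80 and 2.56 FPKM in KO_PBS (-0.13, limma adjusted p = 0.0855), and its sign was the opposite on the deposited scale (0.35). Pdgfra was listed at 0.20 and 0.18 FPKM in KO_REG3B-Fc against 0.34 and 0.46 FPKM in KO_PBS. Lum, Fbln2, Eln, Fbln5, Postn, Sparc and Tgfb1 fell on both scales, by 0.66 (Fbln5) to 1.02 (Fbln2) after scaling. Of the proteases and inhibitors, Mmp2 (-0.75) and Mmp14 (-0.65) also fell on both scales. Timp2 fell after scaling only (-0.50), and Timp3 did not pass (-0.06).

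The 3 genes that rose were Mmp7, Hspg2 and Loxl2. Mmp7 measured 2.25 and 2.06 FPKM in KO_REG3B-Fc against 1.02 and 0.78 FPKM in KO_PBS (log2 change 0.38 ± 0.0913 SE, limma adjusted p = 0.0106). Hspg2 measured 3.95 and 3.82 FPKM in KO_REG3B-Fc against 1.87 and 1.74 FPKM in KO_PBS (0.35 ± 0.0566 SE, limma adjusted p = 0.00144). Loxl2 measured 6.79 and 6.51 FPKM in KO_REG3B-Fc against 3.97 and 3.42 FPKM in KO_PBS (0.18 ± 0.0624 SE, limma adjusted p = 0.0439). Mmp7 passed the filter only through the KO_REG3B-Fc libraries. All 3 were higher in both treated libraries in deposited FPKM, but of these only Hspg2 kept its call with each library left out. Without KO_PBS replicate 2 the adjusted p of Mmp7 was 0.06 and that of Loxl2 0.211, and without KO_REG3B-Fc replicate 1 they were 0.0609 and 0.151. Loxl2 also lost its call without KO_REG3B-Fc replicate 2 (limma adjusted p = 0.113), and Mmp7 lost it with a pseudocount of 0.1 (0.0965).

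Among the markers, summed acinar FPKM was 141000 and 140000 in KO_REG3B-Fc against 320000 and 335000 in KO_PBS, and all 12 fell. Immune markers summed to 146 and 139 FPKM in KO_REG3B-Fc against 358 and 361 FPKM in KO_PBS, and reticular fibroblast markers to 3.86 and 4.36 FPKM against 19.1 and 19.3 FPKM. Beta cell markers took 60.8 and 60.5% of summed FPKM in KO_REG3B-Fc against 40.8 and 40.1% in KO_PBS, and 4 of 7 rose. The part of these cell types in the matrix result was not tested. Of the other matrix genes 28 of 42 tested fell, led by Vtn (-1.51), Pcolce (-1.16) and Smoc2 (-1.12), and Itgav (0.40) and Sdc2 (0.29) rose.

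Set against CTR_PBS, KO_REG3B-Fc islets had 13 of 28 tested genes higher and 2 lower, against 5.59 and 5.1% of all genes, with a median log2 change of 0.22. On the deposited scale 16 were higher and 0 lower, against 16.8 and 2.87% of all genes. Both KO_REG3B-Fc libraries were above both CTR_PBS libraries for 28 of the 36 genes and below them for 3, against 54.4 and 9.8% of all genes tested. The 36 again include genes that the filter left out, some higher and some overlapping, whereas the shares cover tested genes only. Mmp7 had the largest change, with 2.25 and 2.06 FPKM in KO_REG3B-Fc against 0.09 and 0.24 FPKM in CTR_PBS (1.30 ± 0.0913 SE, limma adjusted p = 0.000104). Mmp7 passed the filter only through the KO_REG3B-Fc libraries, where it is highest, so it does not add to the count as support. Eln measured 2.59 and 2.29 FPKM in KO_REG3B-Fc against 1.02 FPKM in each CTR_PBS library (0.67 ± 0.0643 SE, limma adjusted p = 0.000581). Dcn, at 8.83 and 7.73 FPKM in KO_REG3B-Fc against 4.82 and 4.77 FPKM in CTR_PBS, and Fbln2, at 2.05 and 2.00 FPKM against 0.89 and 0.92 FPKM, both rose by 0.58. These 4 genes were above CTR_PBS in both treated libraries. Vim, at 11.1 and 10.3 FPKM in KO_REG3B-Fc against 7.96 and 7.50 FPKM in CTR_PBS, rose by 0.32. Acta2, at 8.33 and 7.76 FPKM in KO_REG3B-Fc against 5.33 and 5.47 FPKM in CTR_PBS, rose by 0.40. Both markers thus lay between their CTR_PBS and KO_PBS levels. Pdgfrb measured 3.71 and 3.65 FPKM in KO_REG3B-Fc against 3.45 and 3.37 FPKM in CTR_PBS (0.01, limma adjusted p = 0.953), and Pdgfra was listed at 0.20 and 0.18 FPKM in KO_REG3B-Fc against 0.09 and 0.10 FPKM in CTR_PBS. The 2 that fell were Sparc, at 31.7 and 30.8 FPKM in KO_REG3B-Fc against 35.6 and 33.4 FPKM in CTR_PBS (-0.23), and Timp3, at 51.5 and 51.4 FPKM against 55.1 and 53.8 FPKM (-0.18). Neither passed on the deposited scale. With 1 library left out, the number higher was 8 (without CTR_PBS replicate 2) or 9 (without any of the other 3 compared), and the number lower was 0 or 1. Ctgf, Mgp, Fbln5 and Timp2 lost their calls whichever of the 4 libraries was left out, and Vim lost its call without CTR_PBS replicate 2 (0.29, limma adjusted p = 0.0551). Of the other matrix genes 7 rose, led by Mfap2 (0.53), Tgm2 (0.50) and Serpinf1 (0.47), and 3 fell, Igfbp3 (-0.43), Sdc4 (-0.36) and Sdc1 (-0.29).

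The fourth comparison asks what the BcBKO ablation changed on HFD. Of 30 tested genes 0 rose and 0 fell in BcBKO islets by limma, against 0.00865 and 0% of all genes, with 2 at an unadjusted p under 0.05. The authors' deposited table also has 0 in each direction, against 0.109% of its genes higher and 0.0546% lower. The median log2 change was 0.18. Thus no gene of the group could be told apart from the spread between these libraries.

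**Figure D4:**
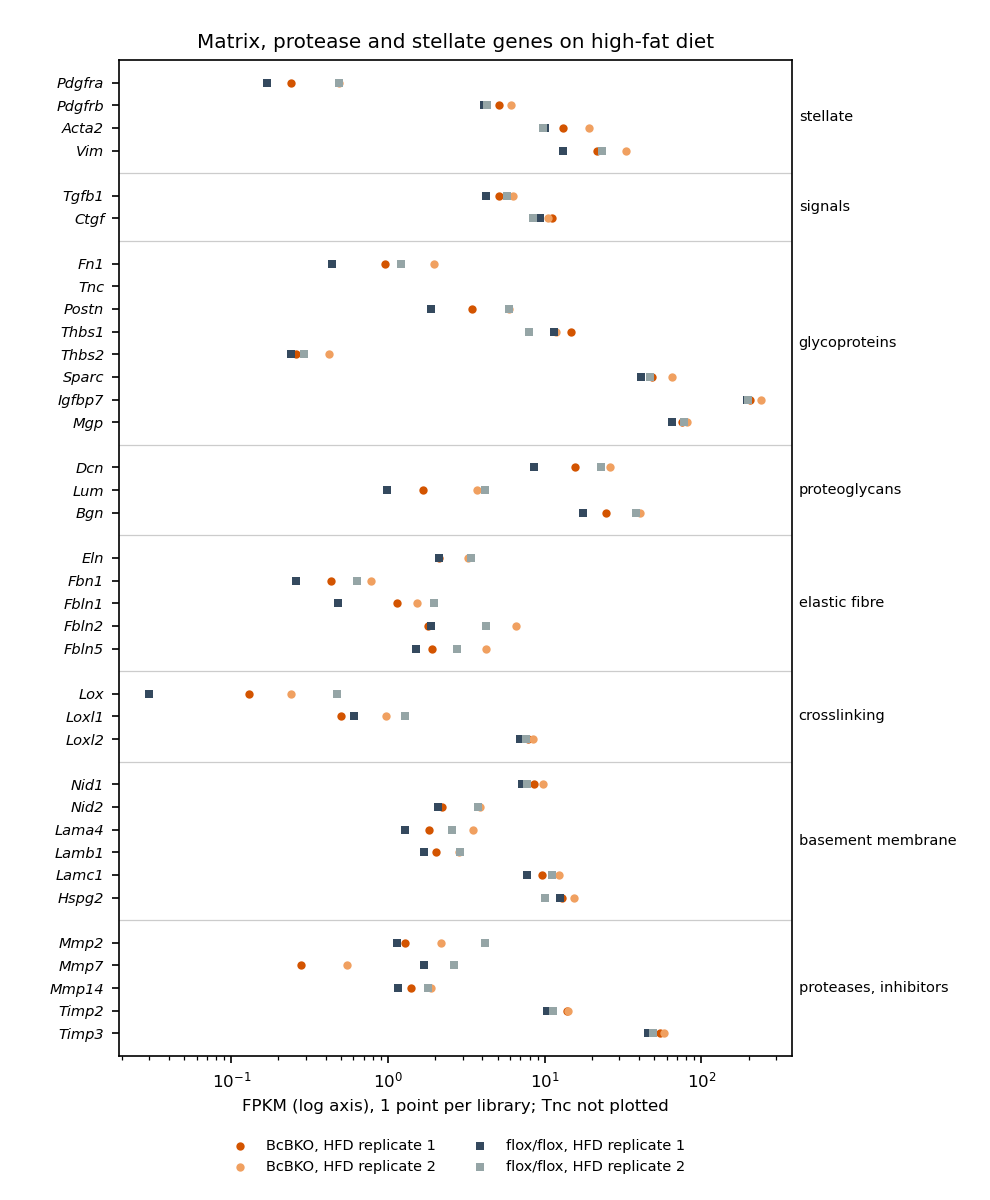
FPKM of 35 genes in the 2 BcBKO (circles) and 2 flox/flox (squares) HFD libraries on a log axis, grouped by role. The replicates of a group lie as far apart as the groups for most interstitial genes, Mmp7 is lower in both BcBKO libraries, and Acta2 is higher in both.

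Mmp7 had the smallest p, with 0.28 and 0.55 FPKM in BcBKO against 1.70 and 2.63 FPKM in flox/flox (log2 change -1.20 ± 0.225 SE, limma adjusted p = 1). Acta2 measured 13.1 and 19.2 FPKM in BcBKO against 9.99 and 9.71 FPKM in flox/flox (0.56 ± 0.202 SE, limma adjusted p = 1). Timp2 came next, with 13.8 and 14.1 FPKM in BcBKO against 10.4 and 11.2 FPKM in flox/flox (0.26 ± 0.118 SE, limma adjusted p = 1). Mmp7 passed the filter only through the flox/flox libraries, where it is higher. None of the 3 had overlapping groups, although none passed over all genes. Pdgfrb measured 5.10 and 6.09 FPKM in BcBKO against 4.10 and 4.26 FPKM in flox/flox. Vim measured 21.5 and 33.2 FPKM in BcBKO against 13.1 and 23.4 FPKM in flox/flox, and Pdgfra 0.24 and 0.49 FPKM against 0.17 and 0.49 FPKM. Vim and Pdgfra therefore overlapped between groups.

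Over the 35 genes, both BcBKO libraries were above both flox/flox libraries for 11 and below them for 1, against 25.3 and 4.85% of all genes tested. The 35 include genes that the filter left out, all of which overlapped between groups. Replicates differed widely in the interstitial genes. Dcn measured 15.6 and 26.0 FPKM in BcBKO and 8.52 and 22.8 FPKM in flox/flox, and the 3 proteoglycans summed to 41.9 and 70.3 FPKM in BcBKO and to 27.1 and 65.2 FPKM in flox/flox. Replicate 2 was thus the higher library of each group. Acinar markers summed to 36700 and 35000 FPKM in BcBKO and to 26500 and 79900 FPKM in flox/flox. Of the other matrix genes 50 were tested and 0 passed in either direction by limma, with 3 at an unadjusted p under 0.05.

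The 5 WT libraries form a single group and give the spread of these genes among islet pools. Summed FPKM of the 36 genes ranged from 203 to 366. The most abundant by median were Igfbp7, a secreted growth factor binding protein (lowest 85.6, median 128, highest 182 FPKM), Mgp (24.0, 35.1 and 53.3 FPKM) and Sparc, a collagen-binding glycoprotein (16.9, 19.8 and 26.7 FPKM). Timp3 (14.3, 19.4 and 29.0 FPKM) had a slightly higher mean than Sparc, 21.6 against 21.2 FPKM. In this group Vim ranged from 9.47 to 14.8 FPKM around a median of 13.7, and Acta2 from 5.00 to 11.5 FPKM around 5.62. Pdgfrb ranged from 1.26 to 2.94 FPKM and Pdgfra from 0.06 to 0.34 FPKM. Each stellate marker thus spanned less than an order of magnitude, with Pdgfra the widest at a ratio of highest to lowest of 5.67. Among interstitial genes, Dcn ranged from 3.45 to 21.9 FPKM (median 8.24, ratio 6.35). Bgn ranged from 5.77 to 23.8 FPKM (median 8.4, ratio 4.12), whereas Sparc had a ratio of 1.58. Replicate 5 was the highest library for 22 of the 36 genes in deposited FPKM and for 19 after median scaling. Which library was lowest depended on the scale, replicate 3 for 18 genes and replicate 4 for 14 in deposited FPKM, but replicate 3 for 4 and replicate 4 for 24 after scaling.

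**Figure D5:**
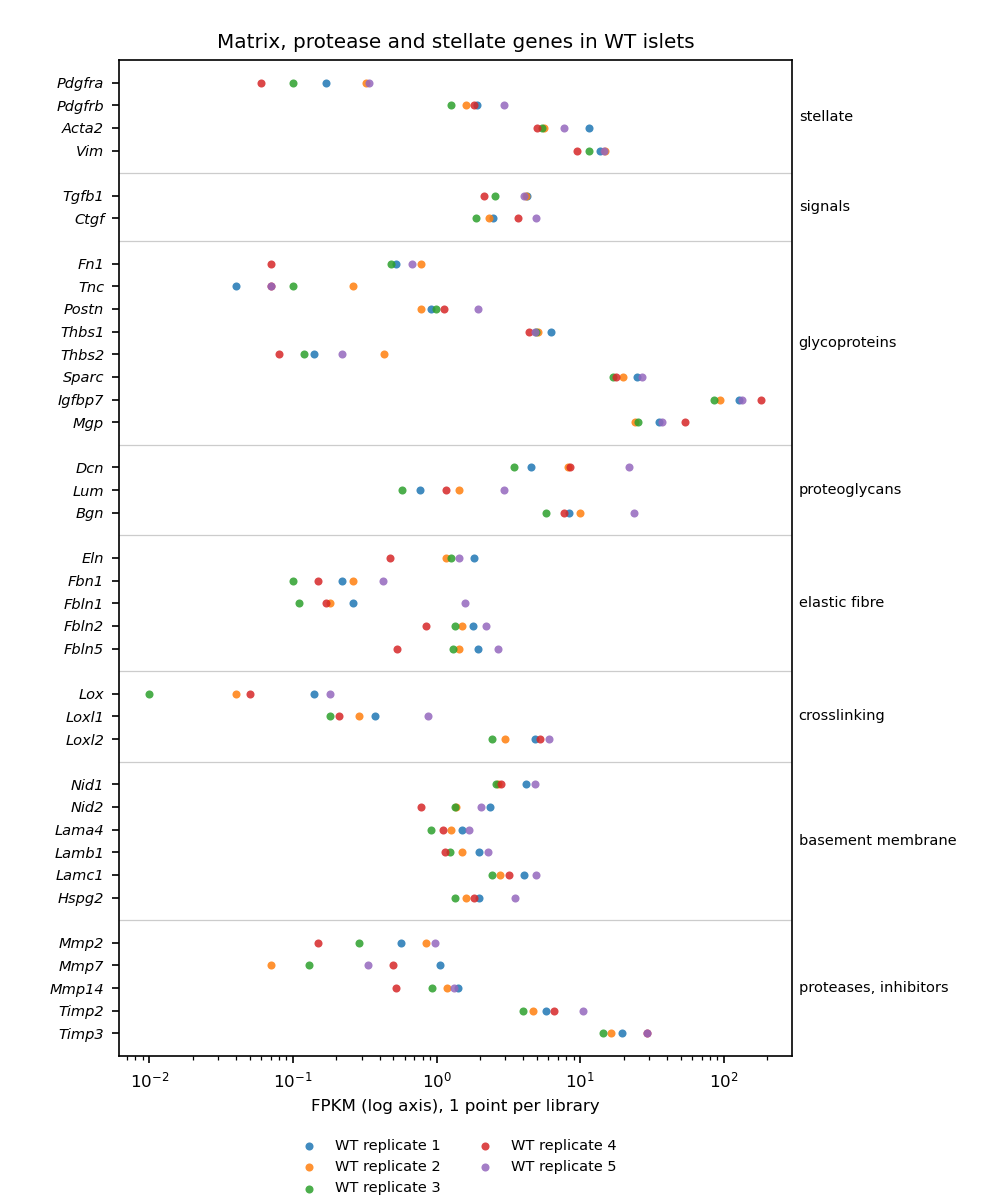
FPKM of the 36 genes in the 5 WT libraries on a log axis, grouped by role. Replicate 5 lies to the right for Dcn, Bgn and Fbln1, and replicate 4 to the left for Fn1, Eln and Mmp2.

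Reticular fibroblast markers summed to 50.5, 51.6 and 37.3 FPKM in WT replicates 1, 2 and 3, against 3.97 and 1.60 FPKM in replicates 4 and 5. Acinar markers took 25.8, 34.1 and 35.5% of summed FPKM in replicates 1 to 3 and 5.28 and 17.7% in replicates 4 and 5. The libraries of 1 group therefore differed in other cell types as well, and this was not tested against the matrix levels.

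Some of the 36 share exon sequence with a gene on the opposite strand in GENCODE M21, among them Mmp7 (AV064505), Fn1, Fbn1, Eln, Thbs1, Nid1, Lox, Loxl2, Ctgf and Pdgfra. Nid2 overlaps the protein-coding gene Rtraf and Igfbp7 overlaps Polr2b. Whether reads were counted by strand is not given in the sources used here, so reads of these pairs cannot be told apart.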

How the data were processed

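Libraries of islet messenger RNA were read paired-end on a BGISEQ-500, per the labels. The authors deposited FPKM for all 19 libraries in 4 tables, and TPM for the 4 HFD libraries, which was not used. For 4 comparisons the authors deposited log2 fold changes, each with a raw p-value and an adjusted one; per the file headers, those of the db and PBS tables come from DESeq2. The genome build is GRCm38.p6, per the submitters' processing notes, while aligner, counting program and strand are not given in the sources used here. Read counts and depth are unknown, so no counting interval was computed. Of the value columns 0 lacked a sample. The WT table has 50 repeated identifiers, of which the first was kept, and 275 lines with missing values.

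Each library was divided by its median ratio to the geometric mean library of its table. Genes of at least 1 FPKM in at least 2 libraries were tested on log2(FPKM + 1) with limma 3.58.1 in R 4.3.3 (two-sided, empirical Bayes with trend, 1 fit per table), with Benjamini-Hochberg adjustment over all genes of the table and a threshold of 0.05. The script was tested on simulated data. Each comparison sets 2 libraries against 2, and values after ± are SEs of the fit. Alternatives were the deposited scale, a pseudocount of 0.1, no filter, a replicate block, only the libraries compared and leaving out each library. Values of every library are given for the 4 stellate markers and for the 3 genes of largest change in each direction that passed, or of smallest p where fewer passed; other genes are named by role. The members, lists and tests were chosen with earlier results of these data known. Promoters came from RefSeq and were matched by Entrez identifier.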

Additional observations from a re-analysis of the deposited data

Results flagged for a closer look

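In the WT group, 6 of the 36 genes had 1 library that lay far from the other 4, with a gap to its nearest neighbour above 0.71 of the group's range. Chance alone flags about 1 in 20 groups. Replicate 5 was the high library for Dcn (21.9 FPKM), Bgn (23.8 FPKM), Fbln1 (1.57 FPKM), Hspg2 (3.49 FPKM) and Loxl1 (0.87 FPKM). Replicate 2 was the high library for Tnc (0.26 FPKM). After median scaling 8 genes had such a library, and of the 6 only Fbln1 was among them.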

How the results depend on the processing

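The scale changed the PBS results most. On the deposited scale KO_PBS against CTR_PBS had 11 members lower in place of 0, KO_REG3B-Fc against KO_PBS had 13 higher in place of 3 and 13 lower in place of 20, and KO_REG3B-Fc against CTR_PBS had 0 lower in place of 2. That scale is not corrected for the shift of the median gene. It turned the sign, for KO_PBS against CTR_PBS, of Hspg2 (-0.31), Pdgfrb (-0.26), Lama4 (-0.26), Lamb1 (-0.24), Nid2 (-0.21), Igfbp7 (-0.19), Thbs1 (-0.18) and Nid1 (-0.18). For KO_REG3B-Fc against KO_PBS it turned Timp3 (0.55), Nid2 (0.43), Nid1 (0.36), Igfbp7 (0.35), Pdgfrb (0.35), Thbs1 (0.34), Lama4 (0.26), Lamb1 (0.26), Mgp (0.17) and Timp2 (0.07), and for KO_REG3B-Fc against CTR_PBS Lama4 (0.00) and Lamb1 (0.02). Over all genes, the deposited scale gave 1021 higher and 9603 lower in place of 2943 and 2308 for KO_PBS against CTR_PBS, 10157 and 822 in place of 2361 and 2927 for KO_REG3B-Fc against KO_PBS, 1977 and 338 in place of 659 and 601 for KO_REG3B-Fc against CTR_PBS, and 1530 and 3856 in place of 2328 and 3335 for db_REG3B against db_GFP. With no filter, KO_REG3B-Fc against CTR_PBS had 1 member lower, and 448 genes higher and 370 lower over all genes. For KO_REG3B-Fc against KO_PBS, Ctgf stood at -0.02 on the deposited scale and lost its call (limma adjusted p = 0.754). With only the libraries compared, Nid1, Lamb1 and Loxl2 lost their calls (limma adjusted p = 0.0644, 0.0656 and 0.0675).

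With each library left out in turn, 0 to 2 members were lower in KO_PBS than in CTR_PBS, the 2 being without KO_PBS replicate 1, and 1392 to 1987 genes were lower over all genes. Against KO_PBS, KO_REG3B-Fc had 1 to 3 members higher, and Nid2 ranged from -0.08 to 0.03. Against CTR_PBS it had 8 to 9 higher and 0 to 1 lower, and 236 to 289 genes higher and 230 to 302 lower over all genes. A lone library is there assumed to vary like the other groups of its fit. The db counts stayed at 0 higher and 35 lower, or 33 lower where a db_GFP library was left out and fewer genes were tested. The HFD counts were 0 in each direction under every alternative run.

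Replicate numbers are shared between groups, but the labels do not say that a number marks shared mice, a batch or a day, so they were not taken as pairs. Deviations of same-numbered libraries correlated at -0.0508 to 0.047 in the PBS and db tables and at 0.67 in the HFD table, a hint of shared structure there from 2 numbers only. With the replicate block 1298 HFD genes were at an unadjusted p under 0.05, in place of 299, and Vim (limma adjusted p = 0.283), Mmp7 (0.133) and Acta2 (0.339) still did not pass, with Vim and Dcn higher in BcBKO than in flox/flox within each number. With the replicate block KO_REG3B-Fc against CTR_PBS had 14 members higher and 1 lower, KO_REG3B-Fc against KO_PBS 3 and 19, KO_PBS against CTR_PBS 20 and 0, db_REG3B against db_GFP 0 and 35, and BcBKO against flox/flox 0 and 0. The read depth is unknown, so levels under 1 FPKM carry no stated precision.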
